A study of Mus musculus with 6 samples.

Results

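Gene expression in the endothelium-enriched cells of the mouse yolk sac was compared with that of the same sorted fraction from the heart tube and the caudal-half tissue of the embryo. The yolk sac was represented by 2 of the 6 arrays of the study, and each embryonic tissue by 2 more. All samples came from mice of mixed background at embryonic day 9.5. The sample names carry Wt in every group, and the labels name no transgene, deletion or treatment. Tissues were taken fresh and cells were sorted by flow cytometry as CD31+/CD41-/CD45-, so the sort is common to all groups. CD31 is a surface protein of endothelial cells, CD41 of megakaryocytes and early blood progenitors, and CD45 of leukocytes. Each array carried RNA of 1 independent biological replicate, with an unstated number of embryos behind it. The mean of the 2 yolk sac arrays was set against the mean of the heart tube mean and the caudal-half mean, which weights both embryonic tissues equally. Levels are on the log2 scale of the array software RMA, taken as the natural log of the deposited signal, and a gene is represented by its brightest probe set. A difference of 1 is a doubling on this scale. If the deposited signals are linear instead, every difference and standard error (SE) is larger by a factor of 1.44, and p-values and calls do not change.

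The yolk sac is the first site of blood and vessel formation in the mouse. Its vessels run in the mesoderm between an outer epithelium, the visceral endoderm, and an inner mesothelium. Visceral endoderm absorbs, digests and secretes for the embryo before the placenta and liver take over, and makes many of the plasma proteins later made by liver. Endothelium of the yolk sac forms a primitive plexus in which the first red cells circulate and from which progenitors of blood arise. The heart tube is lined by endocardium, and the caudal-half tissue holds the trunk vessels together with tissues of the growing body axis.

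Of 18193 genes, limma called 1223 higher in yolk sac than in the embryonic mean (6.72%) and 1026 lower (5.64%), or 2249 in all (12.4%), at a Benjamini-Hochberg adjusted p under 0.05. These shares are the background for every count of called list members below. At an unadjusted p under 0.05 in limma, 4935 of the 18193 genes passed in either direction, which is the background for the unadjusted counts. The called differences ran from 0.55 to 7.75 upward, with a median of 1.21, and reached 6.38 downward, with a median of -1.02. Both yolk sac arrays lay above all 4 embryonic arrays in 1163 of the genes called higher (95.1%), and below all 4 in 901 of those called lower (87.8%). Over all genes the arrays were apart in this way in 16.2% upward and 15% downward. The changes upward were the larger ones: 157 genes were higher by at least 2 against each embryonic tissue and 28 by at least 4, whereas 33 were lower by at least 2 against each and 3 by at least 4. The plot of yolk sac level against embryonic level shows this asymmetry.

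**Figure D1:**
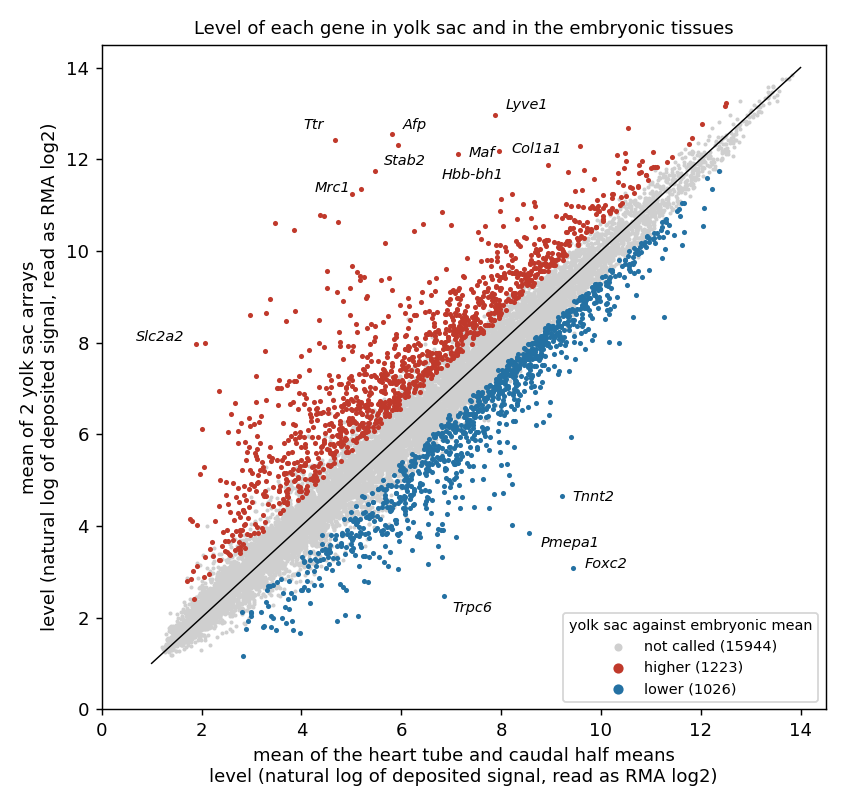
Mean level of each of 18193 genes on the 2 yolk sac arrays (vertical axis) against the mean of the heart tube and caudal-half means (horizontal axis), both on the RMA log2 scale read from the natural log of the deposited signal. Red points are the 1223 genes called higher, blue points the 1026 called lower, grey points the rest, and the line marks equal levels; the points farthest from it, such as Ttr (7.75), lie above the line.

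Against heart tube alone, 1214 genes were higher in yolk sac (6.67%) and 936 lower (5.14%), and against caudal-half tissue alone 885 were higher (4.86%) and 767 lower (4.22%). In either direction these were 11.8% and 9.08% of genes. Both pairwise comparisons use the same yolk sac arrays. Over all probe sets other than controls, replicate arrays correlated at r = 0.981 in yolk sac, 0.986 in heart tube and 0.984 in caudal-half tissue. Yolk sac and embryonic arrays correlated at 0.946 to 0.963 over the same probe sets. The yolk sac pair differed by over 1 in 736 genes (4.05%), against 472 in heart tube and 540 in caudal-half tissue. Leaving out the first yolk sac array gave 640 genes higher and 413 lower, and leaving out the second gave 776 and 599. Without the first or the second heart tube array the counts were 756 and 790 higher and 543 and 500 lower. Without the first or the second caudal-half array 682 and 654 genes were lower, and the counts higher moved by less than 1.5 times.

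The genes of the sort and of endothelial identity came first. Pecam1, which encodes CD31, was at 10.09 and 9.82 on the yolk sac arrays, 9.49 and 9.61 in heart tube and 10.08 and 9.83 in caudal-half tissue. The groups overlapped, and the difference of 0.20 ± 0.16 (SE) did not pass (limma adjusted p = 0.497). Ptprc, which encodes CD45, read 2.33 to 2.85 on all 6 arrays, within the range of probe sets for bacterial RNAs (1.33 to 4.03), which serves here as a mark of weak signal. Itga2b, which encodes CD41, was at 8.37 and 8.18 in yolk sac, 6.81 and 6.93 in heart tube and 6.80 and 6.42 in caudal-half tissue, a difference of 1.54 ± 0.17 (limma adjusted p = 0.00325). Its yolk sac arrays lay above all embryonic arrays although the sort was against the protein. The VEGF receptor gene Kdr differed by 0.79 ± 0.22 and did not pass (adjusted p = 0.0676).

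Genes of the visceral endoderm were far higher in yolk sac. Of 34 measured genes for its secreted and surface proteins, 28 were called higher and 0 lower in limma, with a median difference of 3.43 against 0.02 over all genes. At an unadjusted p under 0.05, 30 were higher and 0 lower. Both yolk sac arrays were above all embryonic arrays in 31 of the 34. The log2 of the list's summed level was 15.09 and 15.14 in yolk sac and 11.13 to 11.39 on the embryonic arrays. Visceral endoderm lies against the vessels of the yolk sac, and the sort was for CD31+ cells. Whether endoderm cells or their RNA reached the sorted fraction was not tested. In bulk RNA more cells of a type and more RNA per cell cannot be told apart.

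Ttr encodes transthyretin, a carrier of thyroid hormone and retinol-binding protein. It was at 12.31 and 12.53 in yolk sac, 4.81 and 4.90 in heart tube and 4.46 and 4.50 in caudal-half tissue, a difference of 7.75 ± 0.15 (limma adjusted p = 1.48e-05). Afp, alpha-fetoprotein, the main serum protein of the early embryo, was at 12.56 and 12.53 in yolk sac, 4.90 and 5.85 in heart tube and 6.72 and 5.82 in caudal-half tissue. For both genes the 2 yolk sac arrays were close to each other and far above every embryonic array. Rbp4, the plasma carrier of retinol, was at 10.54 and 10.68 in yolk sac against 2.77 and 2.63 in heart tube and 3.81 and 4.68 in caudal-half tissue. Its heart tube level was within the range of the bacterial probe sets, so its difference of 7.14 ± 0.25 rests partly on a signal near background. Spink1, a trypsin inhibitor, differed by 6.41, Spp2, a secreted phosphoprotein, by 5.94 and S100g, a calcium-binding protein of absorptive epithelia, by 5.63. For Spp2 and S100g the embryonic levels were again near background.

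The promoters of 3 of these genes and of 1 globin gene described further on are shown because they hold short motifs of endoderm and erythroid transcription factors. They were chosen after the search. Each is the 250 bases before the RefSeq start of the gene in GRCm38.p6, on the gene's strand, with motif matches in capitals. The motifs were the HNF1 half-site (GTTAAT or GTTAAC), the FOXA motif (TGTTTAC or TGTTTGC) and the GATA motif (AGATAA or TGATAA), all on both strands, and the TATA box (TATAAA) on the gene's strand. GTTAAC reads the same on both strands, and a GATA and a TATA match can share letters.
Afp, chr5:90490464-90490713, plus strand: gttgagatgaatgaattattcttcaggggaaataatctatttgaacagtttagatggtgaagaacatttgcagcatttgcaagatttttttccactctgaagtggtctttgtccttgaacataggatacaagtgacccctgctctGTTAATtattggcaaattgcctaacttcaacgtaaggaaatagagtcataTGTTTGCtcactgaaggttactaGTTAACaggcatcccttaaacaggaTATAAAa
Apoa1, chr9:46228380-46228629, plus strand: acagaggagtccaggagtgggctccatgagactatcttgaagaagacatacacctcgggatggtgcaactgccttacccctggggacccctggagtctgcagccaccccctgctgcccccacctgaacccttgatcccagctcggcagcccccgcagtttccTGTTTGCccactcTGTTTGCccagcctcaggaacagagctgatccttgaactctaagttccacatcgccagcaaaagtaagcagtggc
Apob, chr12:7977427-7977676, plus strand: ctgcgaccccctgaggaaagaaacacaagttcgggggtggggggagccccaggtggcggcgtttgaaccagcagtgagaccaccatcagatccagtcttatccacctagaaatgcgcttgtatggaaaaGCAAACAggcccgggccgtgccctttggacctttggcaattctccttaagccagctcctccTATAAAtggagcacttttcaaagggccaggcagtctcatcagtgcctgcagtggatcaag
Hba-x, chr11:32276350-32276599, plus strand: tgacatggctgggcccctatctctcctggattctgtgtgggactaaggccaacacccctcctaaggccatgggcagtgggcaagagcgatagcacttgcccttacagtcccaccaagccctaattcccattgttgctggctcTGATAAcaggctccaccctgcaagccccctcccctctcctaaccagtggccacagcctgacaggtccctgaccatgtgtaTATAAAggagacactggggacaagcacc
In Afp the HNF1 half-sites began 105 and 32 bases before the start, the FOXA match 55 and a TATA match 7 bases before it. Apoa1 held 2 FOXA matches, at 88 and 75 bases before the start. Apob held a FOXA match on the opposite strand at 121 bases and a TATA match at 60, and Hba-x a GATA match at 108 bases and a TATA box at 28.

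RefSeq promoters were matched for 25 of the 28 visceral endoderm genes called higher, 30 promoters in all. The HNF1 half-site was in 8 of the 30 (26.7%) and the FOXA motif in 8 (26.7%), against 7.05% and 6.18% of 18109 promoters of all measured genes and 8.75% and 7.29% of all 32851 promoters searched. A GATA motif was in 4 of the 30 (13.3%), against 11.8% and 16.6%. Among 9 promoters of 8 erythroid genes called higher, 5 held a GATA motif (55.6%). Neither endoderm motif was limited to these genes: the HNF1 half-site was in 3 of 13 promoters of scavenger receptor genes called higher (23.1%), and the FOXA motif in 5 of 38 promoters of genes lower by at least 2 against each embryonic tissue (13.2%). These matches describe letters in the window and were not tested.

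**Figure D2:**
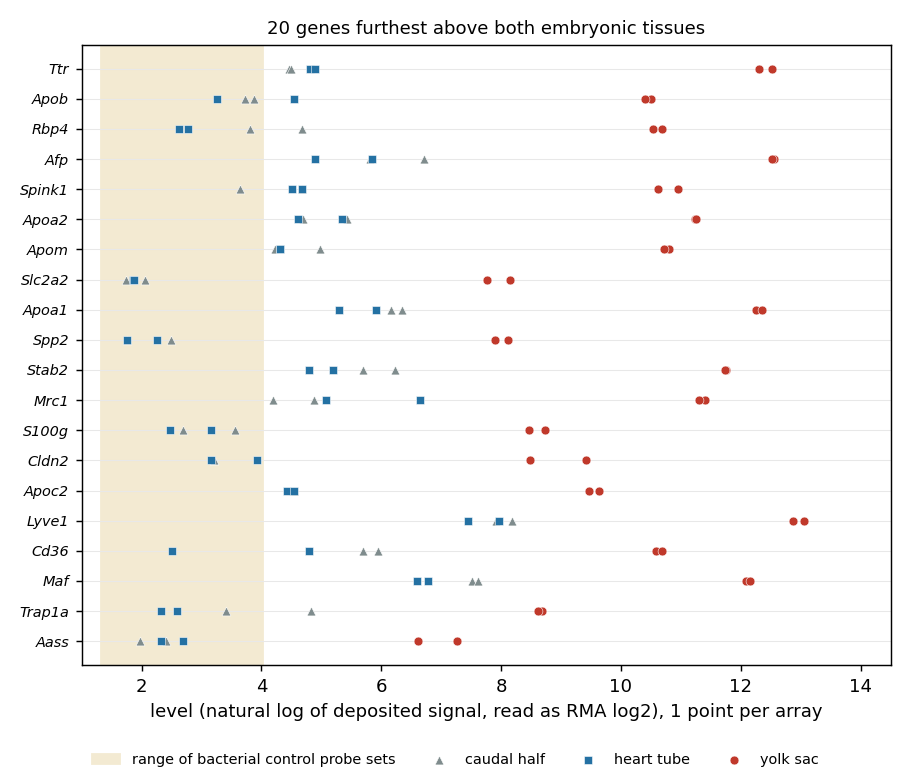
Levels on each of the 6 arrays for the 20 genes called higher in yolk sac whose smaller difference, against heart tube or caudal-half tissue, was largest. Red circles are yolk sac, blue squares heart tube and grey triangles caudal-half tissue on the RMA log2 scale; the shaded band is the range of the bacterial probe sets (1.33 to 4.03), and every yolk sac array lies to the right of all embryonic arrays of its gene.

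Apolipoproteins, which package lipid for export, stood among the largest differences. Of 38 genes of lipoprotein and lipid transport 23 were higher and 2 lower, with a median difference of 1.34. Apob, Apoa1, Apoa2, Apom and Apoc2 belong to the visceral endoderm list too. Apob, the core protein of large lipoproteins, was at 10.51 and 10.40 in yolk sac against 3.26 and 4.54 in heart tube and 3.73 and 3.88 in caudal-half tissue. Apoa1, the core protein of high-density lipoprotein, was at 12.25 and 12.36 against 5.29 and 5.92 and 6.34 and 6.16. Apoa2 differed by 6.23 ± 0.28, Apom by 6.30 ± 0.22 and Apoc2 by 5.05 ± 0.14, each with all yolk sac arrays above all embryonic arrays. The lower members were Vldlr, a lipoprotein receptor (-1.84), and Mogat2, an enzyme of triglyceride resynthesis (-1.61).

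Clotting factors and complement were also represented, partly by genes counted above, since the fibrinogen genes belong to the visceral endoderm list too. Of 39 genes 18 were higher and 1 lower, at a median of 0.80. The 3 fibrinogen chains were each higher: Fgg at 8.02 and 7.60 in yolk sac against 2.77 to 3.53 on the embryonic arrays, Fga by 4.12 ± 0.20 and Fgb by 3.45 ± 0.17. Mbl2, a soluble lectin of innate immunity, differed by 3.60, the clotting cofactor gene F5 by 2.53 and Serpinf2, the inhibitor of plasmin, by 2.24. Except for Fgb, every embryonic array read these genes at levels like those of the bacterial probe sets. Plat, the tissue plasminogen activator, was lower by -2.54 ± 0.32.

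Transporters and enzymes of absorptive and liver-like tissue went the same way in part. Slc2a2, the low-affinity glucose transporter of liver and gut, was at 8.15 and 7.76 in yolk sac against 1.74 to 2.05 on the 4 embryonic arrays, all near background. Among 50 solute carriers of nutrients 14 were higher and 6 lower. The iron exporter gene Slc40a1 differed by 3.77, and the amino acid transporter genes Slc7a8 and Slc7a7 by 2.63 and 2.07, whereas the related Slc7a6 was lower (-2.04 ± 0.24). Of 44 enzymes of drug and steroid metabolism 9 were higher and 1 lower, led by the monooxygenase gene Fmo1 (4.14 ± 0.23). The lower one was the glutathione transferase gene Gsta4, at 8.16 and 7.88 in yolk sac against 10.95 and 10.94 in heart tube and 9.47 and 9.31 in caudal-half tissue. Without the second yolk sac array 5 of these enzymes were called higher, and without the first array 3 of the solute carriers were called lower. Aass, the first enzyme of lysine breakdown, was at 7.27 and 6.61 in yolk sac and 1.97 to 2.69 on the embryonic arrays, and Cldn2, a claudin of leaky epithelia, was higher by 5.58.

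Of 21 genes of retinoid handling 3 were higher and 3 lower. The plasma carriers Rbp4 and Ttr and the retinal reductase gene Dhrs3 (2.32 ± 0.17) were higher. Those for the cellular retinoic acid-binding proteins Crabp1 (-1.95) and Crabp2 (-1.84) and for the retinoic acid-degrading enzyme Cyp26a1 (-1.79) were lower. Cyp26a1 was at 4.72 and 4.17 in yolk sac, 5.71 and 5.25 in heart tube and 6.98 and 7.01 in caudal-half tissue. For all 3 the caudal-half tissue was the highest tissue and the yolk sac arrays were below all others. The whole list had a median of -0.11.

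Among 22 epithelial genes 9 were higher and 1 lower, with a median of 0.56 and a summed level of 12.15 on both yolk sac arrays against 11.02 to 11.45 on the embryonic arrays. Cldn6, a claudin of embryonic epithelia, was at 9.62 and 9.45 in yolk sac, 3.65 and 3.98 in heart tube and 6.68 and 6.17 in caudal-half tissue. The keratin genes Krt8 and Krt18 were higher by 2.14 and 2.44. Epcam, the epithelial adhesion molecule, was called (1.21 ± 0.19, limma adjusted p = 0.0117), but its yolk sac arrays (6.88 and 7.40) were not above those of caudal-half tissue (7.39 and 7.60), and the heart tube alone was lower (4.30 and 4.45). Its call was lost without the second yolk sac array (adjusted p = 0.0523). Prom1, prominin, was lower by -2.49.

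Transcription factors of endoderm were called at shares near those of all genes. Of 21 measured, 1 was higher (4.76%) and 2 lower (9.52%), against 6.72% and 5.64% over all genes, with a median difference of 0.04. In 8 of the 21 all 6 arrays were within the range of the bacterial probe sets, where a difference could hardly show. Nr5a2, a nuclear receptor of endoderm and liver, was at 8.57 and 8.34 in yolk sac, 4.02 and 4.86 in heart tube and 6.91 and 6.75 in caudal-half tissue (2.82 ± 0.25). Foxa2 read 3.33 and 3.70 in yolk sac and 2.61 to 3.65 on the embryonic arrays, within the range of the bacterial probe sets. Hnf4a, a nuclear receptor of visceral endoderm, differed by -0.18 ± 0.20 on the probe set that represents it, which read 3.80 to 4.46 on all 6 arrays. Another of its 4 probe sets was at 7.24 and 6.84 in yolk sac against 2.36 to 3.27 on the embryonic arrays (4.39 ± 0.28, limma adjusted p = 0.000911 over all probe sets). The choice of the brightest probe set therefore decided the result for this gene. The lower genes were Gata4 (-1.99 ± 0.23), at 5.46 and 4.94 in yolk sac and 10.17 and 10.03 in heart tube but only 4.56 and 3.99 in caudal-half tissue, and Prox1 (-1.85), whose call was lost without either yolk sac or either heart tube array (adjusted p up to 0.194).

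**Figure D3:**
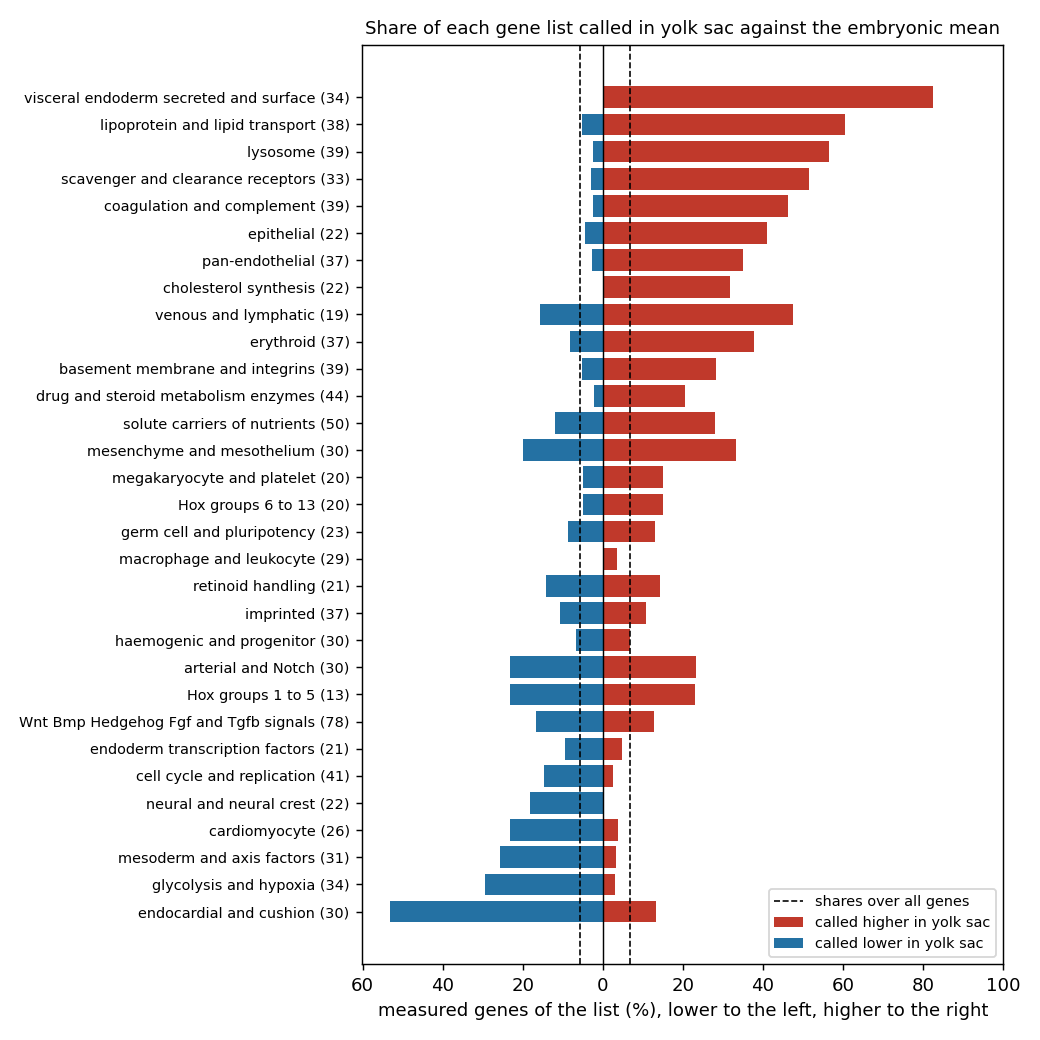
Share of the measured genes of each list (number in brackets) called higher (red, to the right) or lower (blue, to the left) in yolk sac than in the embryonic mean, in percent of the list. Dashed lines mark the shares over all genes (6.72% higher and 5.64% lower); visceral endoderm genes stand at the top with 82.4% higher and endocardial and cushion genes at the bottom with 53.3% lower.

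Receptors that clear proteins and debris from blood, several of them known from sinusoidal endothelium and macrophages, were also higher. Of 33 scavenger and clearance receptors 17 were higher and 1 lower, at a median of 0.79. Which cells of the sorted fraction carried these RNAs was not tested. Stab2, a hyaluronan and scavenger receptor of sinusoidal endothelium, was at 11.76 and 11.74 in yolk sac, 5.20 and 4.80 in heart tube and 5.70 and 6.23 in caudal-half tissue (6.27 ± 0.21, limma adjusted p = 8.29e-05). Lyve1, a hyaluronan receptor of lymphatic, sinusoidal and yolk sac endothelium, was at 13.06 and 12.87 against 7.44 and 7.97 and 7.92 and 8.19. Mrc1, the mannose receptor of macrophages and some endothelium, was at 11.40 and 11.31 against 5.08 and 6.64 and 4.20 and 4.88. In each of the 3 both yolk sac arrays were far above every embryonic array.

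Cd36, a carrier of fatty acids and a scavenger receptor, was at 10.58 and 10.69 in yolk sac and 5.95 and 5.69 in caudal-half tissue, but its heart tube arrays were far apart at 2.51 and 4.79. The neonatal Fc receptor gene Fcgrt, whose product carries immunoglobulin and albumin, differed by 4.07 ± 0.20, and Dnase1l3, which encodes a secreted nuclease, by 3.45 ± 0.20. Maf, a transcription factor, was at 12.08 and 12.16 against 6.59 and 6.78 in heart tube and 7.51 and 7.62 in caudal-half tissue, a difference of 4.99 ± 0.15. Beside Mrc1, no other of the 29 macrophage and leukocyte genes passed in limma, with a median of 0.10. At an unadjusted p under 0.05, 5 were higher and 3 lower, together close to the share over all genes. For 16 of the 29 all 6 arrays were within the range of the bacterial probe sets, where a difference could hardly show. Csf1r, the receptor of the macrophage growth factor, read 4.08 and 4.68 in yolk sac and 3.86 to 4.52 on the embryonic arrays. The summed level of the list was 11.95 to 12.01 in yolk sac and 10.26 to 11.26 in the embryo, with Ptprc near background throughout. Mrc1 alone, at the levels given above, made up most of the yolk sac sum, so the sum does not show a shift of the list. Trap1a, a tumour rejection antigen gene of the placenta and early embryo, was higher by 5.36 ± 0.37.

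Lysosomal genes were called higher as well. Of 39 genes for enzymes and membrane proteins of the lysosome 22 were higher and 1, the glucuronidase gene Gusb, was lower (-0.72), with a median of 0.73. The protease genes Lgmn (3.0 ± 0.36), Ctsc (2.56 ± 0.14) and Ctsd (1.57 ± 0.15) were among those with the largest differences. Lgmn belongs to the visceral endoderm list too. Ctsc was at 8.59 and 8.69 in yolk sac against 5.90 to 6.24 on the 4 embryonic arrays. Tpp1, a peptidase, and Asah1, a ceramidase, differed by 1.47 and 1.29. The differences were mostly small, and the count of 22 fell to 9 and 11 without the first and second yolk sac arrays, to 13 and 14 without the first and second heart tube arrays and to 13 without the first caudal-half array. The call of Gusb was lost without any 1 of the 6 arrays (adjusted p up to 0.144).

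Genes shared by all endothelium differed by smaller amounts. Of 37 pan-endothelial genes 13 were higher and 1 lower, with a median of 0.55. Clec14a, a C-type lectin of endothelium, was at 10.36 and 10.49 in yolk sac, 7.51 and 7.54 in heart tube and 7.27 and 7.79 in caudal-half tissue, and was the one with the largest difference (2.90 ± 0.19). The adrenomedullin and calcitonin gene-related peptide receptor gene Calcrl (1.31) and its partner Ramp2 (0.80) were higher against both tissues. So were the diaphragm protein gene Plvap (1.18), the adhesion receptor gene Adgrf5 (1.34) and the VEGF receptor gene Flt1 (0.99). The other probe sets of Flt1 differed by 1.1, 0.18 and -0.08, so its result depended on the probe set. Cdh5, which encodes VE-cadherin, was at 10.85 and 10.88 in yolk sac, 9.97 and 10.03 in heart tube and 10.64 and 10.62 in caudal-half tissue (0.55 ± 0.13, limma adjusted p = 0.0454). The sialomucin gene Emcn was lower (-0.88), with caudal-half tissue highest at 10.97 and 11.15.

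Several of these calls were weak. That of Cdh5 was lost without any 1 of the 6 arrays (adjusted p up to 0.154), with a replicate block (0.0703) and with medians subtracted (0.0642). Flt1, Plvap and Emcn lost theirs without the first yolk sac array (adjusted p up to 0.081), and Ramp2 without the first heart tube or either yolk sac array (up to 0.072). The count of 13 became 6 and 7 without the first and second yolk sac arrays and 8 without the first heart tube array. The summed level of the list was 15.29 and 15.33 in yolk sac, 14.44 and 14.53 in heart tube and 14.94 and 14.98 in caudal-half tissue.

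**Figure D4:**
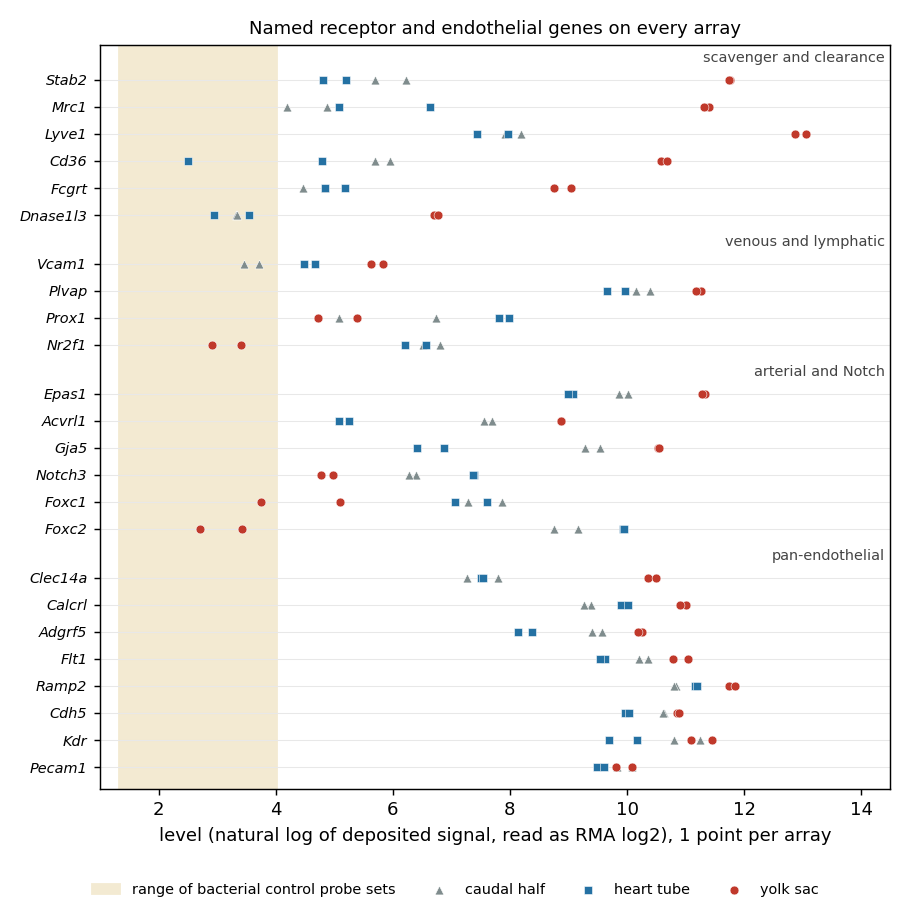
Levels on each of the 6 arrays for named scavenger, venous and lymphatic, arterial and pan-endothelial genes, with red circles for yolk sac, blue squares for heart tube and grey triangles for caudal-half tissue on the RMA log2 scale, and a shaded band for the range of the bacterial probe sets. Stab2, Mrc1 and Lyve1 stand apart from the embryonic arrays by more than 4 units, whereas Pecam1 overlaps.

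Among 19 venous and lymphatic genes 9 were higher and 3 lower, and without the first yolk sac array 1 was lower. Stab2, Lyve1 and Plvap belong to this list too, and Vcam1, an adhesion molecule, was higher by 1.65 ± 0.16. The nuclear receptor gene Nr2f1 was lower (-3.36 ± 0.21), at 2.92 and 3.41 in yolk sac, near background, against 6.21 to 6.81 on the 4 embryonic arrays. Prox1, the lymphatic regulator described above, and Emcn were the other lower members.

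Arterial and Notch genes split evenly, with 7 of 30 higher and 7 lower and a median of 0.09. Gja5, the arterial gap junction protein connexin 40, was at 10.53 and 10.54 in yolk sac, 6.41 and 6.88 in heart tube and 9.29 and 9.53 in caudal-half tissue (2.51 ± 0.18). Acvrl1, a BMP receptor of endothelium, followed the same order of tissues (2.48 ± 0.14), as did the hypoxia-inducible factor gene Epas1 (1.82 ± 0.14). The receptor gene Notch3, best known in mural cells, was lower at 4.77 and 4.98 in yolk sac against 7.38 and 7.37 in heart tube and 6.40 and 6.27 in caudal-half tissue. The forkhead genes Foxc1 and Foxc2, regulators of arterial and lymphatic development, were lower as well and are described below. The counts fell to 4 higher without either yolk sac array, the first heart tube array or the second caudal-half array, and to 3 and 4 lower without the first and second yolk sac arrays.

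Genes of red cells were higher in part. Of 37 erythroid genes 14 were higher and 3 lower, with a median of 0.45 and a summed level of up to 14.08 in yolk sac against 12.30 to 12.72 in the embryo. The embryonic globin gene Hbb-bh1 was at 11.21 and 11.30 in yolk sac, 7.36 and 7.62 in heart tube and 9.0 and 8.90 in caudal-half tissue (3.03 ± 0.15, limma adjusted p = 0.000204). Hba-x, the embryonic alpha-like globin gene whose promoter is shown above, was at 11.04 and 11.23 against 7.47 and 6.96 and 8.77 and 8.76. Hbb-y, the other embryonic beta-like gene, differed by 2.15 ± 0.21. Closely similar globin genes can share probes, which was not tested here. In each globin gene the order was yolk sac, caudal-half tissue, heart tube by group means, although for Hbb-y the heart tube and caudal-half arrays overlapped.

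Structural and enzyme genes of the red cell were also higher, such as the anion exchanger gene Slc4a1 (2.54) and the carbonic anhydrase gene Car2 (2.66). Gata1, the main erythroid transcription factor, read 2.69 to 3.50 on all 6 arrays, within the range of the bacterial probe sets, so these arrays give no measure of it. Klf1, another erythroid factor, was called lower (-1.45 ± 0.34), at 4.08 and 4.90 in yolk sac against 4.75 to 6.67 in the embryo, and the groups overlapped. Its call was also lost with a replicate block (adjusted p = 0.0724). The transferrin receptor gene Tfrc (-1.09) and the iron importer gene Slc11a2 (-0.57) were the other lower members. The calls of these 3 lower genes were each lost on leaving out arrays (adjusted p up to 0.205), with the first yolk sac and first heart tube arrays common to all 3. Without the first yolk sac array 9 of the list were called higher. Whether globin RNA came from red cells that passed the sort or from other cells was not tested.

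Blood progenitor genes differed little. Of 30 haemogenic and progenitor genes 2 were higher, Itga2b and the hyaluronan receptor gene Cd44 (1.81 ± 0.19), and 2 were lower, Mecom (-1.26 ± 0.15) and Gfi1 (-1.58). These shares are close to those of all genes. Runx1, needed for blood to arise from endothelium, was at 6.44 and 6.67 in yolk sac and 6.26 to 6.63 in the embryo, and its difference of 0.18 ± 0.16 did not pass (adjusted p = 0.552). Gfi1 lost its call without either caudal-half or either yolk sac array and with a replicate block (adjusted p up to 0.209). Of 20 megakaryocyte and platelet genes 3 were higher (Itga2b, Clec1b and Mmrn1) and 1 lower (Thbs1), with a median of 0.14. Clec1b, at 9.31 and 9.70 in yolk sac, was level with caudal-half tissue (9.75 and 9.64) and differed from heart tube alone (6.48 and 6.32). The call of Mmrn1 was lost without the first yolk sac array (adjusted p = 0.0867).

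Matrix and mesenchymal genes went both ways. Of 30 genes of mesenchyme and mesothelium 10 were higher and 6 lower, with summed levels of 14.35 to 14.39 in yolk sac, 14.24 to 14.34 in heart tube and 13.42 to 13.48 in caudal-half tissue. The collagen gene Col1a1 was at 12.21 and 12.16 in yolk sac, 7.53 and 7.74 in heart tube and 8.42 and 8.12 in caudal-half tissue (4.23 ± 0.16), and Col1a2 was higher by 2.42. Lumican, the collagen-binding proteoglycan of Lum, was at 8.97 and 8.42 against 2.92 and 3.07 and 5.44 and 4.07. Foxf1, a forkhead factor of splanchnic mesoderm, differed by 3.65 ± 0.18, and Upk3b, a marker of mesothelium, by 3.70 ± 0.30. For all 5 genes both yolk sac arrays were above every embryonic array. Hand1, a factor of extraembryonic mesoderm, did not pass (0.54, adjusted p = 0.0987), although another of its probe sets did (1.88, limma adjusted p = 0.0124 over all probe sets). Among the lower members, Pdgfra, a growth factor receptor of mesenchyme, was at 4.27 and 3.84 in yolk sac, 8.35 and 8.38 in heart tube and 5.48 and 5.02 in caudal-half tissue (-2.75 ± 0.20). Without the first yolk sac array 6 of the list were higher, and without the second caudal-half array 3 were lower.

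Among 39 genes of basement membrane and integrins 11 were higher and 2 lower, with a median of 0.47. Itga8, an integrin chain of mesenchyme and smooth muscle, was at 9.25 and 8.76 in yolk sac against 4.97 to 5.67 in the embryo (3.70 ± 0.18). Nid2, a linker protein of basement membranes, was higher by 1.69 and the laminin gene Lama3 by 1.56. The lower genes were the laminin gene Lamb1 (-1.15), whose call was lost without the first yolk sac array (adjusted p = 0.0624), and Agrn (-0.85), lost without the second yolk sac array or either array of heart tube (up to 0.0824). Without the first yolk sac array 4 of the list were called higher, with 6 without the first heart tube or first caudal-half array and 7 without the second caudal-half array.

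**Figure D5:**
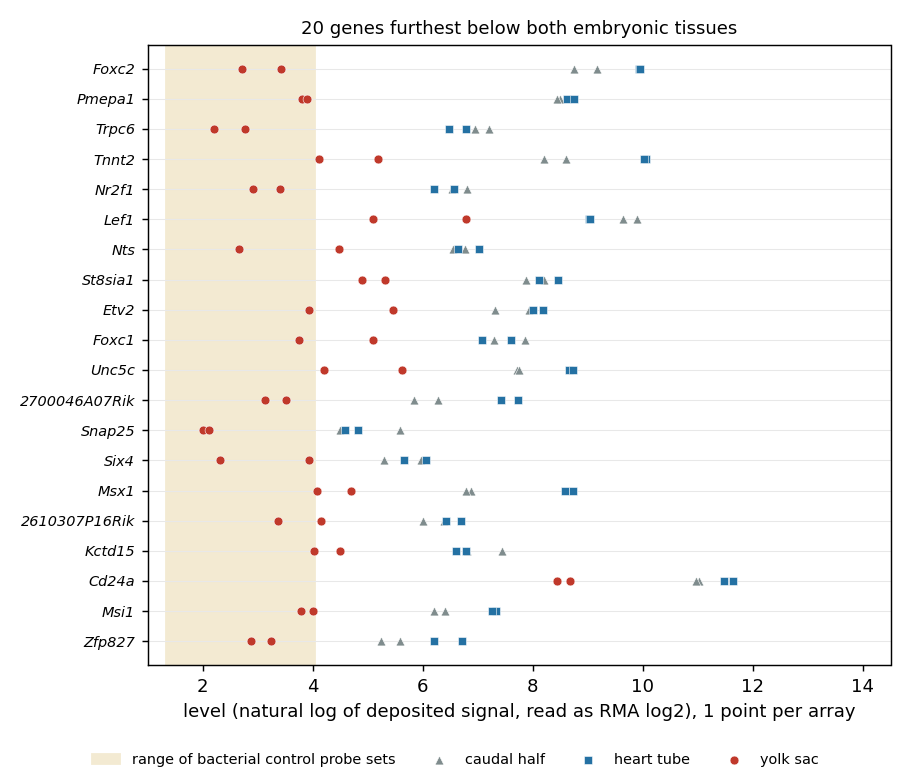
Levels on each of the 6 arrays for the 20 genes called lower in yolk sac whose smaller difference, against heart tube or caudal-half tissue, was largest in size. Red circles are yolk sac, blue squares heart tube and grey triangles caudal-half tissue on the RMA log2 scale; every yolk sac array lies to the left of all embryonic arrays, and many are within the shaded range of the bacterial probe sets (1.33 to 4.03).

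The 3 genes lower by at least 4 against each embryonic tissue were Foxc2, a forkhead transcription factor, Pmepa1 and Trpc6. Foxc2 was at 2.71 and 3.42 in yolk sac, within the range of the bacterial probe sets, and at 9.93 and 9.95 in heart tube and 9.16 and 8.75 in caudal-half tissue (-6.38 ± 0.24, limma adjusted p = 9.38e-05). Its relative Foxc1 was at 3.75 and 5.09 against 7.07 and 7.61 and 7.86 and 7.29. Lef1, the nuclear mediator of Wnt signals, was at 6.79 and 5.09 against 9.02 and 9.03 and 9.89 and 9.64 (-3.46 ± 0.43). Both yolk sac arrays were below all embryonic arrays in Foxc2, Foxc1 and Lef1, but for Foxc1 and Lef1 they differed from each other by over 1. Etv2, the factor that starts endothelial and blood fate, was likewise uneven at 5.46 and 3.93 in yolk sac against 7.31 to 8.19 on the 4 embryonic arrays (-3.16 ± 0.42). The homeobox gene Msx1 differed by -3.37 ± 0.20 and the RNA-binding protein gene Msi1 by -2.90 ± 0.15, each on its brightest probe set. Another probe set of Msx1 differed by only -0.49, and others of Msi1 by -0.49 and -0.63. The size of both differences therefore depended on the probe set. Six4 was lower by -2.62, a call that was lost without the first heart tube array (adjusted p = 0.0505).

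Genes of signalling and of the cell surface were also low. Pmepa1, an inhibitor of TGF-beta signalling that TGF-beta itself induces, was at 3.81 and 3.89 in yolk sac, 8.62 and 8.74 in heart tube and 8.50 and 8.44 in caudal-half tissue (-4.73 ± 0.14, limma adjusted p = 5.54e-05). Trpc6, a calcium-permeable channel, was at 2.76 and 2.20 against 6.78 and 6.47 and 7.21 and 6.94. Unc5c, a netrin receptor, differed by -3.30, the neuropeptide gene Nts by -3.17 and the ganglioside synthase gene St8sia1 by -3.06. Snap25, a gene of vesicle fusion in neurons, read 2.00 and 2.11 in yolk sac and 4.49 to 5.59 in the embryo. Cd24a, a small surface glycoprotein, was at 8.43 and 8.68 against 11.48 and 11.63 and 11.02 and 10.96, one of the lower genes with levels well above background on all arrays.

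Other abundant genes were among those called lower. Hmga2, a chromatin protein of growing embryonic cells, was at 10.93 and 10.95 in yolk sac, 11.90 and 11.98 in heart tube and 12.17 and 12.18 in caudal-half tissue (-1.12 ± 0.13). The growth factor gene Mdk (-1.50) and Enc1 (-1.25) were lower with both yolk sac arrays below all others. Nasp, a histone chaperone, differed by -1.26, and its call was lost with the mean of all its probe sets (adjusted p = 0.0823).

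Among 30 endocardial and cushion genes 16 were lower and 4 higher, with a median of -0.93. The summed level of the list was 12.80 and 12.68 in yolk sac, 12.69 and 12.73 in caudal-half tissue and 14.93 and 14.94 in heart tube, so the yolk sac and caudal-half arrays overlapped and both heart tube arrays were above them. Both yolk sac arrays were below all embryonic arrays in 9 of the 30. Has2, the hyaluronan synthase of cardiac jelly, was at 3.81 and 3.70 in yolk sac and 4.12 and 4.38 in caudal-half tissue against 10.03 and 9.85 in heart tube. Gata5 was at 3.68 and 4.16 in yolk sac, 9.41 and 9.55 in heart tube and 4.37 and 3.98 in caudal-half tissue. In both genes the yolk sac was near the caudal-half tissue and far below the heart tube. Pdlim3, a muscle protein of the Z-disc, had the same pattern, at 4.14 and 3.89 against 11.53 and 11.61 and 4.88 and 4.85. Hapln1, a linker of hyaluronan matrix (-1.49 ± 0.14), Tgfb2 (-1.62 ± 0.23) and Snai1 (-1.31 ± 0.16) were lower on both yolk sac arrays than on any embryonic array. So was Msx1 on its brightest probe set. Tbx20 differed in opposite directions, at 9.31 on both yolk sac arrays, 12.18 and 11.95 in heart tube and 5.35 and 5.76 in caudal-half tissue, and did not pass against the mean (0.50, adjusted p = 0.125). Nfatc1, a factor of valve endocardium, was called (-1.58) but lost its call without any 1 of the 4 embryonic arrays (adjusted p up to 0.0663).

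The higher members of that list were the growth factor genes Bmp2 (1.59), Bmp4 (1.18) and Tgfb1 (1.00) and the matrix gene Postn (1.26). Their count of 4 fell to 1 without the first yolk sac array and to 2 without the second or without the first heart tube array. Bmp2 and Postn lost their calls without the first yolk sac array (adjusted p up to 0.132), Bmp2 also without either heart tube array, and Bmp4 without the second yolk sac array (0.0547). Tgfb1 lost its call without any array but the second heart tube array and with a replicate block (adjusted p up to 0.183).

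Among 26 heart muscle genes 6 were lower and 1 higher, with a median of -0.65. Tnnt2, cardiac troponin T, was at 5.19 and 4.12 in yolk sac, 10.05 and 10.02 in heart tube and 8.20 and 8.61 in caudal-half tissue (-4.57 ± 0.31, limma adjusted p = 0.000524). Actc1, cardiac actin, was lower by -3.33 ± 0.57, with yolk sac arrays of 5.84 and 3.58. The other lower members, such as Tnni1 and Myl2, were near the caudal-half level and below heart tube alone, at differences from heart tube of -4.12 and -3.20. The summed level of the list was 9.64 and 9.72 in yolk sac, 11.91 and 11.98 in heart tube and 10.02 and 10.10 in caudal-half tissue. The part of heart muscle RNA in the endocardial differences was not tested. Cryab, a chaperone of muscle and lens, was the higher member (2.07), and lost its call without either heart tube or either yolk sac array (adjusted p up to 0.163).

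Of 31 mesoderm and axis factors 8 were lower and 1, Meis2 (1.28), was higher. Beside Foxc1 and Foxc2, the lower genes included Hand2 (-2.80), Meox1 (-1.13), Isl1 (-1.23) and Tbx5 (-1.99). Hand2 was at 3.84 and 4.03 in yolk sac, 8.97 and 8.74 in heart tube and 4.89 and 4.34 in caudal-half tissue. Its other probe sets differed by only -0.66 and -0.55, and the other probe set of Tbx5 by -0.7. Meox1, Isl1 and Tbx5 lost their calls without the second yolk sac array (adjusted p up to 0.0939), and also without the first yolk sac and heart tube arrays (Meox1, up to 0.0574), the second heart tube array (Isl1, 0.0523) or the second heart tube and first yolk sac arrays (Tbx5, up to 0.126). The count of 8 fell to 5 without the first yolk sac or second heart tube array.

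Of 22 neural and neural crest genes 4 were lower and 0 higher in limma. At an unadjusted p under 0.05 these counts were 6 and 0. Together that is close to the share over all genes, 4935 of 18193 in either direction, but here every passing gene was lower. The genes called lower in limma were 18.2% of the list, against 5.64% of all genes. The neural tubulin gene Tubb3 was at 3.05 and 3.90 in yolk sac, 7.99 and 8.71 in heart tube and 4.10 and 4.01 in caudal-half tissue. Ncam1, Erbb3 and Elavl4 had the same order, with heart tube highest. Elavl4 lost its call without any array but the first yolk sac array (adjusted p up to 0.0988).

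Hox genes, which mark position along the body axis, gave no single order of the 3 tissues. Hoxb5 was at 9.46 and 9.34 in yolk sac, 4.63 and 4.86 in heart tube and 8.51 and 8.74 in caudal-half tissue (2.71 ± 0.16), and Hoxc8 at 7.17 and 7.21, 2.28 and 2.34, and 4.76 and 4.84 (3.64 ± 0.14). For both the yolk sac arrays were the highest of all. Hoxd8 was at 7.17 and 7.61 in yolk sac, above heart tube (3.67 and 3.38) and below caudal-half tissue (9.23 and 9.02). Hoxb9 and Hoxd1 in yolk sac were near heart tube and below caudal-half tissue, by -2.69 and -3.33. Of 13 genes of groups 1 to 5, 3 were higher (Hoxb3, Hoxb4 and Hoxb5) and 3 lower (Hoxa3, Hoxa5 and Hoxd1). In groups 6 to 13, 3 of 20 were higher (Hoxb6, Hoxc8 and Hoxd8) and 1 lower (Hoxb9). Apart from Hoxb5, Hoxc8 and Hoxb6, each of these calls was lost on leaving out 1 or more arrays (adjusted p up to 0.16), the first yolk sac array for Hoxa3, Hoxa5, Hoxb3, Hoxb9 and Hoxd1 and the second for Hoxa3, Hoxb3, Hoxb4, Hoxb9 and Hoxd8, beside heart tube and caudal-half arrays.

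Germ cell and pluripotency genes gave 3 higher and 2 lower of 23. Rhox5, a homeobox gene of extraembryonic tissue and gonads, was at 9.64 and 9.71 in yolk sac, 7.37 and 7.68 in heart tube and 8.04 and 8.10 in caudal-half tissue (1.88 ± 0.15). Dppa3, Ifitm3, Prdm1 and Pou5f1 were called on the mean of both tissues, but in each the yolk sac did not stand above or below all embryonic arrays. Dppa3, for instance, was at 7.06 and 7.07 in yolk sac, 3.35 and 3.20 in heart tube and 9.68 and 9.52 in caudal-half tissue. These 4 calls were lost without either yolk sac array (adjusted p up to 0.142), and those of Dppa3 and Pou5f1 also without embryonic arrays.

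Genes of signal pathways were called in both directions without a shift of the whole list. Of 78 genes 10 were higher and 13 lower, with a median of 0.00. Tgfbr2, a TGF-beta receptor, was at 10.17 and 10.39 in yolk sac against 8.42 to 8.59 on the embryonic arrays (1.78 ± 0.15), and the ligand gene Bmp5 was higher by 1.27. Bmpr1a, a BMP receptor, was lower at 7.91 and 7.79 against 10.45 and 10.48 in heart tube and 8.91 and 8.94 in caudal-half tissue, and so was the feedback inhibitor gene Smad7 (-1.64 ± 0.17). The growth factor gene Pdgfc was lower by -2.57 ± 0.42, with yolk sac arrays of 3.52 and 2.01. The count higher fell to 5 without the first yolk sac or first heart tube array and to 6 without the second yolk sac array, and the count lower to 8 without either caudal-half array or the second heart tube array.

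Metabolic genes differed by smaller amounts. Of 34 glycolysis and hypoxia genes 10 were lower and 1 higher, with a median of -0.42. Hk2, hexokinase, was at 6.24 and 6.32 in yolk sac, 7.92 and 8.33 in heart tube and 8.36 and 8.52 in caudal-half tissue (-2.0 ± 0.17). The lactate exporter gene Slc16a3 (-1.59), the stress gene Ddit4 (-1.45) and Pgk1 (-0.87) were lower, whereas the glucose transporter gene Slc2a3 was higher, at 12.08 and 12.18 against 9.90 and 9.41 in heart tube and 11.25 and 11.40 in caudal-half tissue. The count of 10 fell to 2 without the first yolk sac array, to 5 and 3 without the first and second heart tube arrays and to 5 and 6 without the first and second caudal-half arrays. Slc16a3 lost its call without the first yolk sac array, and Pgk1 without that or either heart tube array (adjusted p up to 0.0949).

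Among 22 cholesterol synthesis genes 7 were higher and 0 lower in limma, with a median of 0.55, against 16 and 1 at an unadjusted p under 0.05. Stard4, a sterol carrier, was at 10.68 and 10.73 in yolk sac against 9.07 to 9.37 in the embryo (1.48 ± 0.16). The others, such as Sqle (0.72 ± 0.15), were small. Without any 1 of the 6 arrays 1 to 3 of the list were called, and Sqle was not (adjusted p up to 0.133). Of 41 cell cycle and replication genes 6 were lower and 1 higher, with Ccnd2, a D-type cyclin, at 9.74 and 9.36 in yolk sac against 10.52 to 10.84 in the embryo (-1.19 ± 0.17). The higher gene was the inhibitor gene Cdkn2c (1.25). Without any 1 of the 6 arrays 2 or 3 of the list were lower, and Cdkn2c lost its call without any array but the first heart tube array (adjusted p up to 0.119).

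Among 37 imprinted genes, expressed from 1 parental copy, 4 were higher and 4 lower. The matrix gene Dcn (2.33 ± 0.18), the Notch-like ligand gene Dlk1 (2.00 ± 0.30), Phlda2 (1.36 ± 0.15) and Meg3 (0.73) were higher. Asb4 (-1.24), Usp29 (-1.13), the cell cycle inhibitor gene Cdkn1c (-1.68) and Igf2r (-0.82) were lower. Cdkn1c and Igf2r were near the caudal-half tissue and below heart tube (11.95 and 12.07, and 11.74 and 11.77). Dlk1 lost its call without the first yolk sac array (adjusted p = 0.0635), and Meg3, Usp29 and Igf2r without either heart tube array, the second yolk sac array and others (up to 0.198). Without the first yolk sac array 2 of the list were higher, and without the second yolk sac or either heart tube array 2 were lower.

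In a minority of called genes the yolk sac resembled 1 of the embryonic tissues, with a mean between theirs or within 0.5 of one. This held for 209 of the genes called higher, 130 of them by a difference from heart tube and 79 from caudal-half tissue, and for 242 of those called lower, 156 and 86. Esm1, an endothelial proteoglycan of tip cells, was at 7.14 and 7.25 in yolk sac and 7.31 and 7.55 in caudal-half tissue, but at 2.48 and 2.68 in heart tube. Cldn5, the claudin of endothelial tight junctions, was at 10.29 and 10.32 in yolk sac and 10.22 and 10.11 in caudal-half tissue against 6.40 and 7.14 in heart tube. Pdpn, Cd109 and Aplnr, the apelin receptor, had the same pattern. Among genes called lower, Bmper, a regulator of BMP signals, was at 1.82 and 2.27 in yolk sac and 2.20 and 2.13 in caudal-half tissue against 8.06 and 8.16 in heart tube. Epha3, Sox9, Irx5, Ackr3 and Ccdc141 were likewise below heart tube alone. The differences of these genes set yolk sac and caudal-half tissue apart from heart tube and are not particular to yolk sac.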

How the data were processed

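RNA of 6 sorted samples, 2 per tissue, was hybridised to Affymetrix mouse arrays. Per the submitters' processing notes, RMA and affy were used by the authors to compute the deposited signal. Versions, filters and build were not given in the sources used here. Deposited signals ran from 2.46 to 2172540, and their natural log (0.9 to 14.6) was read as the RMA log2 value. The table held 45101 probe sets, 64 of them controls. The platform annotation gave 34958 probe sets 1 gene symbol, 932 several and 9211 none. Each gene took its own probe set with the highest mean over all arrays (18193 genes, 9010 of them with several). Arrays carry no depth, and their number limits the precision.

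Tissue means were fitted over all 6 arrays (R 4.3.3, limma 3.58.1, functions lmFit and eBayes, 3 residual and 3.48 prior degrees of freedom, prior SD 0.21, median SE 0.182), two-sided, with Benjamini-Hochberg adjustment over all genes. The fit was tested on simulated data. Lists were described by counts of called members, without a set test. Some genes belong to several lists, so the counts of different lists are not independent. Summed levels are log2 of the sum of 2 raised to each level, so the brightest members weigh most in them. Promoters are those of RefSeq.

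The comparison, gene lists and named genes were chosen with earlier results of these data known. Named genes were the 20 per direction with the largest smaller-of-both differences, up to 6 called members per list, fixed markers, 10 per direction that rested on 1 embryonic tissue and 5 per direction with the highest level. Vldlr, Mogat2, Plat, Emcn, Tfrc, Slc11a2, Postn, Bmp2, Bmp4, Agrn, Meis2, Gusb, Igf2r, Cdkn1c and Pdgfra, and the genes of the closing section, were named after their values were seen. The labels call the 2 arrays of a tissue biological replicates.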

Additional observations from a re-analysis of the deposited data

How the results depend on the processing

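With all 4 embryonic arrays as 1 group, 530 genes were higher and 304 lower in yolk sac. With a minimum difference of 1 on the scale used, 193 were higher and 55 lower, against 243 and 149 for heart tube alone and 151 and 52 for caudal-half tissue alone; these counts depend on the scale of the deposited signals. With a trended prior 1229 genes were lower than in caudal-half tissue, and 1525 higher and 1487 lower than in the embryonic mean. Leaving out 1 array in turn gave 640 to 903 higher and 413 to 682 lower against the embryonic mean, 549 to 1030 and 387 to 764 against heart tube, and 416 to 680 and 222 to 475 against caudal-half tissue. With a replicate block the counts against the embryonic mean were 1058 and 858. The labels do not say whether same-numbered arrays were paired. Deviations of same-numbered arrays correlated at -0.007 to 0.047, which cannot settle the question with 2 arrays per tissue. Averaging a gene's probe sets gave 1380 and 1213, subtracting medians 1067 and 1321, quantile normalisation 1174 and 1116, and leaving out dim genes 1261 and 1196. Of 199 named genes called, 189 remained called with a replicate block, 106 with 1 embryonic group, 92 with the minimum difference and 154 without the first yolk sac array. Hnf4a turned from -0.18 to 1.76 (limma adjusted p = 0.000884) with the mean of all probe sets. In an alternative chosen after seeing the data, with each probe set tested alone, 1147 genes were higher and 1062 lower by at least 1 probe set. In 4379 genes all 6 arrays were within the range of the bacterial probe sets, where a difference could hardly show.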

Other observations

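Of 31 genes of vitamin and metal handling, a list drawn up after the values were seen, 14 were higher in yolk sac and 2 lower, with a median difference of 0.53. The metal-binding metallothionein genes Mt1 and Mt2 were at 8.82 and 9.13 and at 10.26 and 10.09 in yolk sac. On the embryonic arrays they read 4.02 to 6.39 and 5.14 to 6.22. Cubn, the cubilin receptor for vitamin B12 and many proteins, was at 9.41 and 8.99 against 3.44 to 6.09, and its partner Lrp2, megalin, at 6.78 and 7.24 against 2.53 to 4.86. Cubn lost its call without the first yolk sac array (limma adjusted p = 0.0548). The folate receptor gene Folr1 (3.32), the vitamin B12 carrier gene Tcn2 (2.93) and the selenium carrier gene Selenop (2.71) were also higher. The lower genes were Tfrc and Slc11a2, both of iron uptake. Part of this list was counted above. Cubn, Lrp2, Amn and S100g, all called higher, belong to the visceral endoderm list too, and Tfrc and Slc11a2 to the erythroid list. Slc40a1, also called higher, was given with the solute carriers.

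Of 57 genes induced by interferon, also listed after the values were seen, 28 were higher and 0 lower in limma (38 and 1 at an unadjusted p under 0.05), with a median of 0.92. Rtp4 was at 6.91 and 6.43 in yolk sac, 3.07 and 1.87 in heart tube and 2.96 and 2.81 in caudal-half tissue, Stat2 at 7.34 and 6.95 against 4.75 to 5.86, and Lgals9 at 7.23 and 7.60 against 3.48 to 4.62. The antigen-presentation gene B2m differed by 0.92 ± 0.14, a call lost without the second yolk sac array (adjusted p = 0.0511). Of 29 genes of Wnt response 7 were lower and 1, Tcf7l1, was higher. Axin2, a feedback inhibitor of the pathway, was at 5.09 and 5.52 in yolk sac, 7.05 and 7.04 in heart tube and 7.85 and 7.80 in caudal-half tissue. Of 35 genes of the amino acid response and serine synthesis 8 were lower and 2 higher. The lower ones included the asparagine synthetase gene Asns (-1.79) and the branched-chain transaminase gene Bcat1 (-2.36), and the higher ones were the serine synthesis genes Phgdh (1.91) and Psph (1.07). Psph lost its call without the second yolk sac array (adjusted p = 0.0639), and Tcf7l1 without either yolk sac array or the second heart tube array (up to 0.105). These lists were chosen on these arrays, so their counts describe them and support nothing further.

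With each probe set tested alone, those without a gene name gave 169 higher (1.84%) and 241 lower (2.63%) calls among 9160. These shares were below those of all 45037 probe sets, 3.98% and 3.7%. Of 1313 called genes with several probe sets, 584 had another probe set called the same way and 1 had another called the other way. Among genes not called, 9 had another probe set higher by at least 2 against both embryonic tissues and 3 had one lower. The protease gene Tmprss2 was one of them, with a probe set at 5.97 and 6.04 in yolk sac against 2.35 to 2.92 on the embryonic arrays, and the non-coding gene Pvt1 another, at 2.96 and 2.88 against 5.88 to 6.05.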
